A study of Mus musculus with 36 samples.

Results

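The 10 genes described here are markers of adipose progenitor cells (Pdgfra, Pdgfrb, Dpp4, Pi16 and Dlk1) and of the mesothelium that covers visceral fat (Wt1, Msln, Upk3b, Lrrn4 and Krt19). They were taken by name from the 56748 genes of the expression table. RNA was sequenced from epididymal white adipose tissue, called visWAT (visceral white adipose tissue), and from liver of the same 18 male C57BL/6J mice, which gave 36 libraries without pooling. In Mlkl Adi-KO mice, an Adipo-Cre transgene deletes a floxed Mlkl gene in mature adipocytes. Their wild-type (WT) littermates carry the floxed alleles without Cre, so that the floxed alleles are shared by all mice. The mice were 16 weeks old when feeding began and received normal chow diet (NCD, 4 mice per genotype) or high-fat diet (HFD, 5 mice per genotype) for 16 weeks. The other cells of the fat pad, progenitors and mesothelium among them, are not the target of this Cre, and whole tissue was sequenced. Expression is given as FPKM, in which read counts are divided by gene length and by a library size that the authors chose, and a fold change is a difference of log2(FPKM + 1).

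New adipocytes arise from progenitors that line vessels and connective tissue. The receptors PDGFRA and PDGFRB bind platelet-derived growth factors (PDGF) and mark stromal and mural cells, whereas DPP4 and PI16 mark an early, fibroblast-like progenitor of the interstitium and DLK1 restrains the maturation of preadipocytes. Visceral fat pads, but not subcutaneous ones, are wrapped in mesothelium, a flat epithelium that expresses keratins, mesothelin and uroplakin 3B, and the transcription factor WT1 is active in visceral progenitors and in mesothelium. In whole tissue, fewer cells of a type and less RNA per cell cannot be told apart.

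Each library had 20875463 to 30322171 reads on genes. Members were counted from 177 to 4823 reads per visWAT library, apart from Dlk1 with 3 to 48 reads. In visWAT the targeted gene Mlkl was at 3.91 to 6.28 FPKM in 8 of the 9 WT libraries and at 1.96 to 2.72 in the 9 Mlkl Adi-KO libraries. At 2.29 FPKM, within the range of the knockout, the library labelled WT NCD mouse 182 was the exception. The library of WT NCD mouse 183 held 26.3% of its reads on 8 seminal vesicle genes, against at most 0.0331% in any other. Values without these 2 mice are given beside results of NCD-fed WT mice where they move a call or a count.

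Promoter sequences are given for 4 members, 2 progenitor genes that moved with diet and 2 mesothelial genes that varied together. Each is the window of 250 bases before the annotated start of the gene, written 5′ to 3′ on the strand of the gene, from RefSeq (GRCm38.p6). Starts of transcription were not measured here. Capitals mark a match to GGAATG, the core recognised by TEAD factors, on either strand.
Pdgfra, chr5:75152001-75152250, plus strand: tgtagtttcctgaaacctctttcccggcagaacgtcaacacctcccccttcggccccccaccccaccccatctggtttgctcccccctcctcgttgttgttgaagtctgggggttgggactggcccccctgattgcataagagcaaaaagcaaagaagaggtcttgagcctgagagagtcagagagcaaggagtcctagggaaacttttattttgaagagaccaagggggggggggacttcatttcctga
Pi16, chr17:29318632-29318881, plus strand: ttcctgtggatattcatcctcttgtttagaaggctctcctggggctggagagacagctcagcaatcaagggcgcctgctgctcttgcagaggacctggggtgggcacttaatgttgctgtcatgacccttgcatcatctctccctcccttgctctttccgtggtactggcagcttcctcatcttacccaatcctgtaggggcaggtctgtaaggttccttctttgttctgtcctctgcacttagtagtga
Upk3b, chr5:136038246-136038495, plus strand: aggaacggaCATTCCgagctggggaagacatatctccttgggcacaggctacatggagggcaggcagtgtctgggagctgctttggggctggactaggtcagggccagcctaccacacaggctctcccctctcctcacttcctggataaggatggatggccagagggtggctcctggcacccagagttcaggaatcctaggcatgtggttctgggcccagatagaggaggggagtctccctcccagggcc
Lrrn4, chr2:132880863-132881112, minus strand: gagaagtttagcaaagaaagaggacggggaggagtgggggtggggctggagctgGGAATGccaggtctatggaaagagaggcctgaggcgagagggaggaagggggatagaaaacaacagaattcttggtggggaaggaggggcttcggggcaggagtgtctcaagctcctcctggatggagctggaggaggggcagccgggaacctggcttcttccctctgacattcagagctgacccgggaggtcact
RefSeq windows were at hand for 6 members, adding Dpp4 and Dlk1, and none was matched for Pdgfrb, Wt1, Msln and Krt19. GGAATG or its reverse complement lay in the windows of Upk3b (241 bases before the start), Lrrn4 (196 bases before) and Dpp4 (118 bases before), and in 12.6% of all 32851 windows of this length. The window of Dpp4 also held TATAAA, a match found in 12.4% of all windows. Neither GCGTGGG, a core shared by WT1 and EGR factors and present in 4.3% of windows, nor the GC box GGGCGG, present in 32.7%, was found in the 6 windows on either strand.

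Among the 10 genes in visWAT, Upk3b was the most abundant and Dlk1 was close to the limit of detection. By the median over the 18 libraries, on the FPKM scale, which is per gene length, the order was Upk3b (26.2 FPKM, range 11.3 to 37.8), Pdgfrb (14.97, 6.70 to 22.7), Pi16 (11.2, 5.49 to 17.01), Msln (10.2, 3.69 to 19.0), Krt19 (9.54, 3.07 to 43.5), Lrrn4 (4.34, 1.72 to 5.91), Pdgfra (4.11, 2.75 to 8.90), Dpp4 (3.64, 1.77 to 10.6), Wt1 (2.04, 1.07 to 2.62) and Dlk1 (0.124, 0.0178 to 0.276). Neighbours in this order overlapped in range, apart from Wt1 and Dlk1. Upk3b was above 88.8% of the genes tested in visWAT, and Wt1 above 30.01%. In the GENCODE annotation Wt1 lies opposite Wt1os (at most 0.328 FPKM in visWAT) and Lrrn4 opposite Crls1 (at most 38.9 FPKM), and since the strand setting of the counting is not given in the sources used here, reads from these overlaps cannot be told apart. Dlk1 stayed below the minimum mean of 0.5 FPKM in every comparison and was not tested, which left 9 members.

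**Figure D1:**
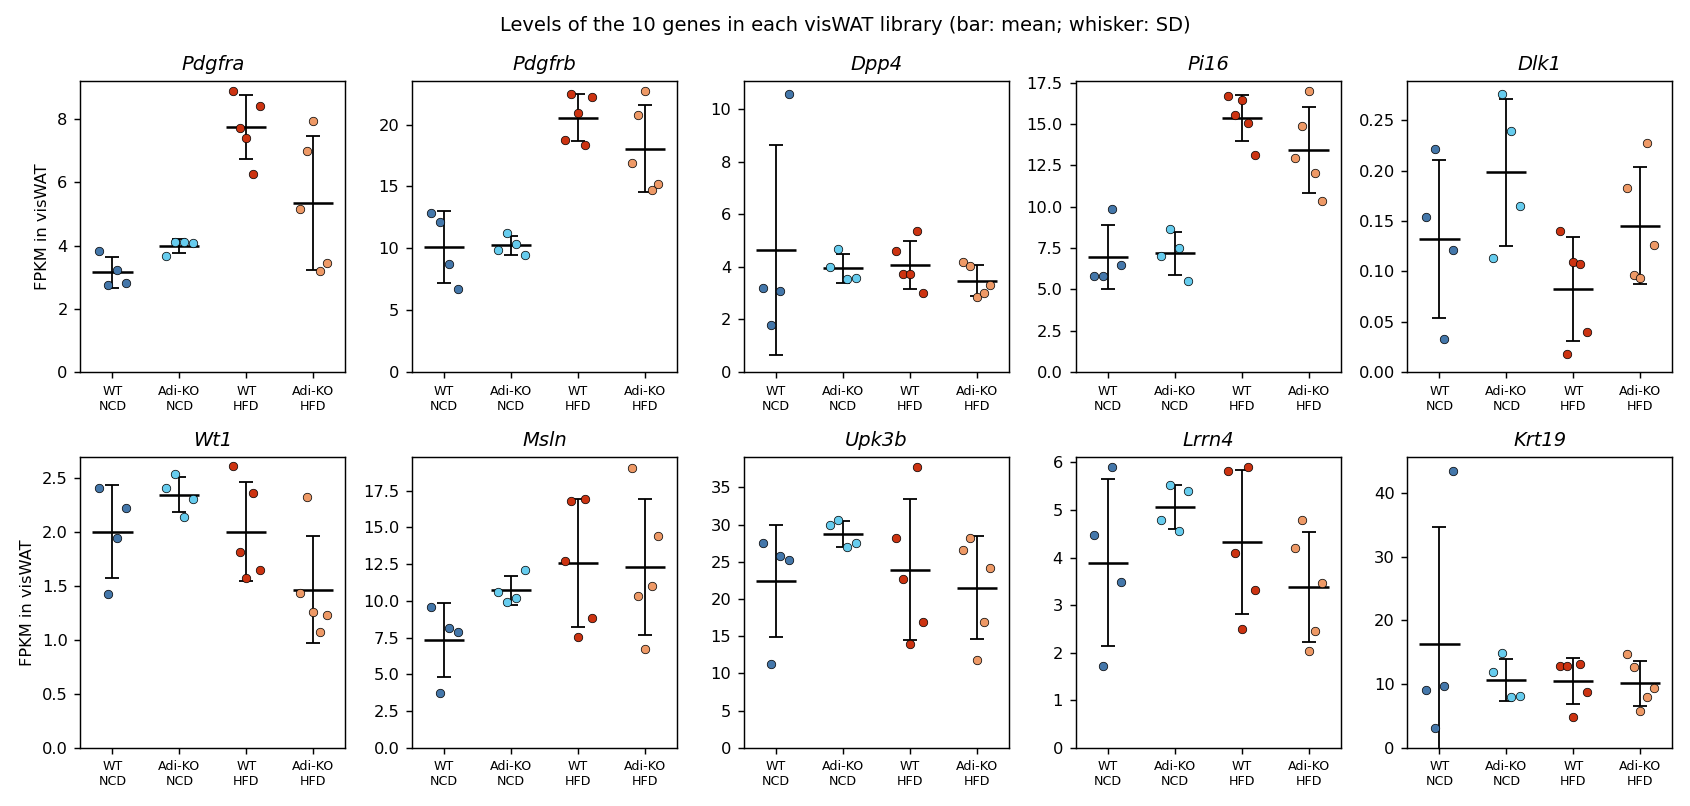
FPKM (vertical axes, linear) of the 10 genes in each visWAT library by genotype and diet (n = 4 on NCD and 5 on HFD). Points are mice, bars the mean and whiskers the SD, and the whisker of Krt19 in WT NCD is cut at 0. Pdgfrb and Pi16 are higher in each HFD-fed mouse than in any NCD-fed mouse, whereas the points of Dpp4, Upk3b and Krt19 overlap between all groups.

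The first question was how HFD altered these genes in WT visWAT. Pdgfra, Pdgfrb and Pi16 rose about 2-fold, and the other 6 members tested did not pass the threshold. These 3 of 9 members stand against 37.8% of all 14161 genes tested, so their share is near the background. Groups did not overlap for the same 3 members, as for 33.4% of all genes tested. On the TPM scale, which fixes the sum of each library, all genes together had a median log2 fold change of 0.38, and the split of passing genes went from 3108 higher and 2239 lower to 4298 higher and 253 lower. Relative to that median, the TPM fold changes were 1.29 for Pdgfra, 1.13 for Pdgfrb and 1.22 for Pi16, and 0.038 for Wt1 and 0.0073 for Krt19. In the library of mouse 183 the seminal vesicle genes added up to 299532 FPKM, and they count in the sum that the TPM scale fixes. For diet in the knockout, without that library, the TPM median of all genes was -0.021. Every comparison below with WT visWAT on NCD includes mouse 183, and its part in the TPM shifts was not tested.

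Pdgfra (ENSMUSG00000029231, chr5:75312953-75358876, mm39), the receptor for PDGF-A and the general marker of fat progenitors, was at 3.83, 2.75, 3.23 and 2.82 FPKM in the 4 WT mice on NCD. On HFD it was at 8.90, 7.73, 7.41, 6.28 and 8.42 FPKM, each value above all of those on NCD. The means were 3.16 ± 0.497 (SD, n = 4) and 7.75 ± 1.004 (SD, n = 5), a ratio of 2.45. The log2 fold change was 1.07 ± 0.108 (SE, limma, adjusted p = 5.81e-05), and the two-sided exact permutation test gave p = 0.0159, the smallest value that 4 against 5 mice allow.

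Pdgfrb (ENSMUSG00000024620, chr18:61178222-61218133), the receptor for PDGF-B found on pericytes and stromal cells, was at 12.8, 12.1, 8.76 and 6.70 FPKM in WT mice on NCD. HFD-fed WT mice had 18.8, 22.5, 21.0, 18.4 and 22.3 FPKM, again without overlap. The log2 fold change was 0.99 ± 0.168 (SE, limma, adjusted p = 0.00145). Without mice 182 and 183, which had the lowest values on NCD, it was 0.67 and still passed.

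Pi16 (ENSMUSG00000024011, chr17:29536654-29549567), a secreted peptidase inhibitor, was at 5.82, 5.79, 9.86 and 6.47 FPKM in WT mice on NCD and at 16.7, 15.5, 16.4, 15.04 and 13.1 on HFD. The NCD value of 9.86 belongs to mouse 182 and is still below every HFD value. The log2 fold change was 1.06 ± 0.143 (SE, limma, adjusted p = 0.00037).

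Dpp4 (ENSMUSG00000035000, chr2:62160417-62242575), the cell-surface dipeptidyl peptidase that marks the same interstitial progenitor as Pi16, did not follow it. Its levels were 3.18, 1.77, 3.08 and 10.6 FPKM in WT mice on NCD and 4.59, 3.72, 3.72, 5.36 and 2.99 on HFD, so the groups overlapped. The log2 fold change of Dpp4 was 0.052 with a 95% interval from -0.75 to 0.85 (limma, adjusted p = 0.924). The value of 10.6 came from mouse 183, and without mice 182 and 183 the log2 fold change was 0.56 (adjusted p = 0.0518). Dlk1 (ENSMUSG00000040856, chr12:109418749-109429262) was at 0.154, 0.222, 0.0326 and 0.121 FPKM on NCD and at 0.140, 0.0178, 0.110, 0.108 and 0.0395 on HFD in WT mice.

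In Mlkl Adi-KO visWAT, 4 of 9 members passed the threshold for diet, against 43.7% of all 14026 genes tested. Pdgfrb and Pi16 rose, and Wt1 and Lrrn4 fell. The groups did not overlap for Pdgfrb and Pi16, as for 38.4% of all genes tested. The knockout mice on NCD had 9.86, 11.2, 10.4 and 9.48 FPKM of Pdgfrb, and those on HFD 16.9, 20.8, 22.7, 14.7 and 15.2. Pdgfrb rose by 0.75 ± 0.128 on the log2 scale (SE, limma, adjusted p = 0.002). For Pi16 the knockout values were 7.05, 8.66, 7.49 and 5.49 FPKM on NCD and 12.9, 14.9, 17.01, 12.02 and 10.3 on HFD. Pi16 rose by 0.82 ± 0.151 on the log2 scale (SE, limma, adjusted p = 0.00288).

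Pdgfra did not separate the diets in the knockout. Its levels were 3.66, 4.11, 4.10 and 4.08 FPKM on NCD and 5.15, 7.002, 7.95, 3.20 and 3.45 on HFD. The values of mice 156 and 157 (3.20 and 3.45) lay below all 4 knockout mice on NCD, whereas those of mice 152 and 153 (7.002 and 7.95) were within the WT range on HFD. Pdgfra had a log2 fold change of 0.28 with a 95% interval from -0.21 to 0.78 (limma, adjusted p = 0.321).

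**Figure D2:**
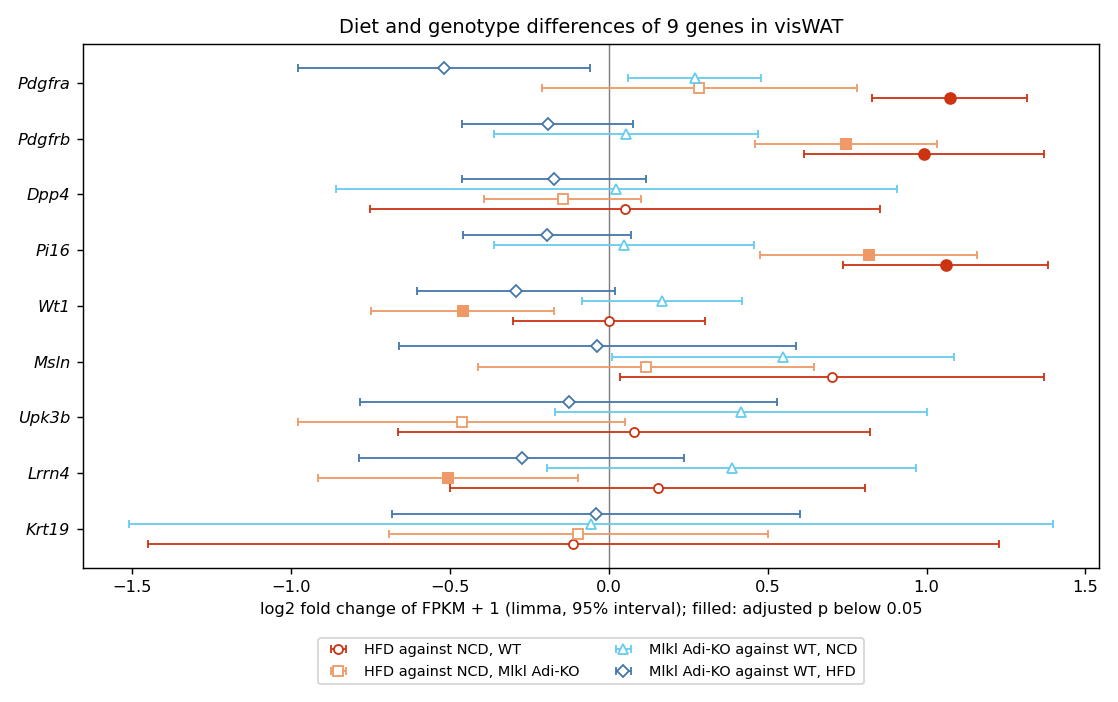
Difference of log2(FPKM + 1) (horizontal axis, limma estimate with 95% interval) of the 9 tested genes in visWAT, by comparison. Filled symbols passed an adjusted p of 0.05, which they did for Pdgfra, Pdgfrb and Pi16 in WT and for Pdgfrb, Pi16, Wt1 and Lrrn4 in Mlkl Adi-KO, only for diet.

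Other genes of adipose progenitors were examined from a list of 24. In WT visWAT, 13 of the 22 tested rose with HFD and 1 fell, with a median log2 fold change of 0.52 against -0.0061 for all genes. Without mice 182 and 183, 13 rose and 2 fell. The largest changes were those of the matrix genes Lum (89.2 ± 22.7 against 15.8 ± 5.80 FPKM, SD, n = 5 and 4), Col1a1 (110 ± 13.1 against 25.2 ± 7.61) and Col3a1 (203 ± 29.1 against 62.2 ± 13.3), and of the adhesion receptor Icam1 (6.15 ± 0.535 against 2.65 ± 0.373). In the knockout 11 of 22 rose and 2 fell, led by Col1a1 (92.7 ± 49.5 against 25.1 ± 3.49 FPKM), Lum (61.6 ± 39.9 against 18.6 ± 3.22) and Col3a1 (173 ± 94.3 against 68.0 ± 5.66). With 1 mouse left out, Col3a1 lost this call in 7 of 9 omissions and Lum in 3 (limma, adjusted p up to 0.0813 and 0.0657). Sema3c and Smpd3 lost theirs in 7 and 6 (up to 0.105 and 0.107), and Col1a1 kept it throughout. In WT mice Zfp423, Efhd1 and Sema3c lost theirs in 7, 6 and 6 of 9, whereas Lum, Col1a1, Col3a1 and Icam1 kept theirs. Ebf2, a transcription factor of committed progenitors, fell in the knockout from 5.93 ± 1.30 to 2.34 ± 0.307 FPKM (log2 fold change -1.04, limma, adjusted p = 0.000462). Collagens and lumican are made by fibroblasts at large and are no marker of progenitors alone.

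Among the 4 PDGF ligands, Pdgfa rose in WT visWAT from 3.96 ± 0.430 to 5.62 ± 0.409 FPKM (log2 fold change 0.42, limma, adjusted p = 0.00192) and in the knockout from 4.35 ± 0.389 to 5.54 ± 0.388 (0.29, adjusted p = 0.00762). Pdgfc fell in the knockout from 4.52 ± 0.187 to 3.49 ± 0.350 FPKM (-0.30, adjusted p = 0.00521). Mural cell genes, which share PDGFRB with progenitors, did not rise with it in WT mice. None of 10 was higher on HFD and 2 were lower, namely Rgs5, a pericyte regulator of G protein signaling (29.2 ± 4.58 against 54.2 ± 16.0 FPKM), and the smooth muscle myosin Myh11 (4.22 ± 1.37 against 26.6 ± 34.5). The NCD mean of Myh11 rests on mouse 183 at 78.3 FPKM. Without it the mean was 9.40 ± 1.69 (SD, n = 3) and the log2 fold change -1.02 (limma, adjusted p = 0.0055), and the call was lost when any of 6 other mice was left out (adjusted p up to 0.0939). In the knockout Rgs5 also fell (33.8 ± 6.67 against 57.0 ± 3.72 FPKM), and Kcnj8, a pericyte potassium channel, rose (11.2 ± 3.40 against 6.22 ± 0.482). For endothelium, 2 of 8 genes fell in WT mice (Kdr, 8.01 ± 1.55 against 13.7 ± 4.56 FPKM, and Emcn, 3.38 ± 0.443 against 5.04 ± 1.07) while on the TPM scale none passed and their median was above 0 (0.20). In the knockout 1 of 8 fell (Tek, 7.74 ± 1.35 against 10.01 ± 0.510). The calls were lost in 8 of 9 omissions of 1 mouse for Kdr, in 1 for Emcn and in 4 for Tek (adjusted p up to 0.129, 0.0503 and 0.0688). Without mice 182 and 183 all 8 endothelial and 4 mural genes passed as lower in WT mice.

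Genes of other cells moved with the same contrast. All 10 macrophage genes rose in WT visWAT and 9 of 10 in the knockout, led in both by Gpnmb, Trem2, Itgax and Cd68. Their summed level was 258 to 366 FPKM in WT mice on NCD and 2142 to 3053 on HFD, with none of the 10 at 0 in any visWAT library. Of 12 genes of mature adipocytes, 7 fell and 1 rose in WT mice, with the adipokine genes Cfd (389 ± 142 against 9491 ± 4652 FPKM) and Retn (127 ± 33.3 against 725 ± 168) and the adrenergic receptor Adrb3 (48.7 ± 12.1 against 221 ± 60.3) among those that fell and the leptin gene Lep (602 ± 36.0 against 137 ± 46.0) as the one that rose. On the TPM scale 4 rather than 7 fell, and without mice 182 and 183 it was 10. In the knockout 5 fell and 2 rose. With 1 mouse left out, the knockout calls of Plin1, Retn and Slc2a4 were lost in 7 of 9 omissions each and that of Cidec in 6 (limma, adjusted p up to 0.108). Those of Cfd, Adrb3 and Lep were kept. In WT mice only Adipoq lost its call, in 4 of 9 (adjusted p up to 0.0802). The part of these cells in the rise of Pdgfra, Pdgfrb and Pi16 was not tested.

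The HFD-fed knockout mice showed the 2 kinds of signal side by side. Mice 156 and 157, with the lowest Pdgfra, Pdgfrb and Pi16 of the HFD-fed mice, had summed macrophage levels of 938 and 885 FPKM and summed adipocyte levels of 13311 and 12801. Mouse 151 was between, with 1743 FPKM for macrophages and 10865 for adipocytes. Mice 152 and 153 had 2549 and 2768 FPKM for macrophages and 6415 and 5967 for adipocytes, within the ranges of HFD-fed WT mice for macrophages (2142 to 3053) and for adipocytes (5271 to 6800).

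**Figure D3:**
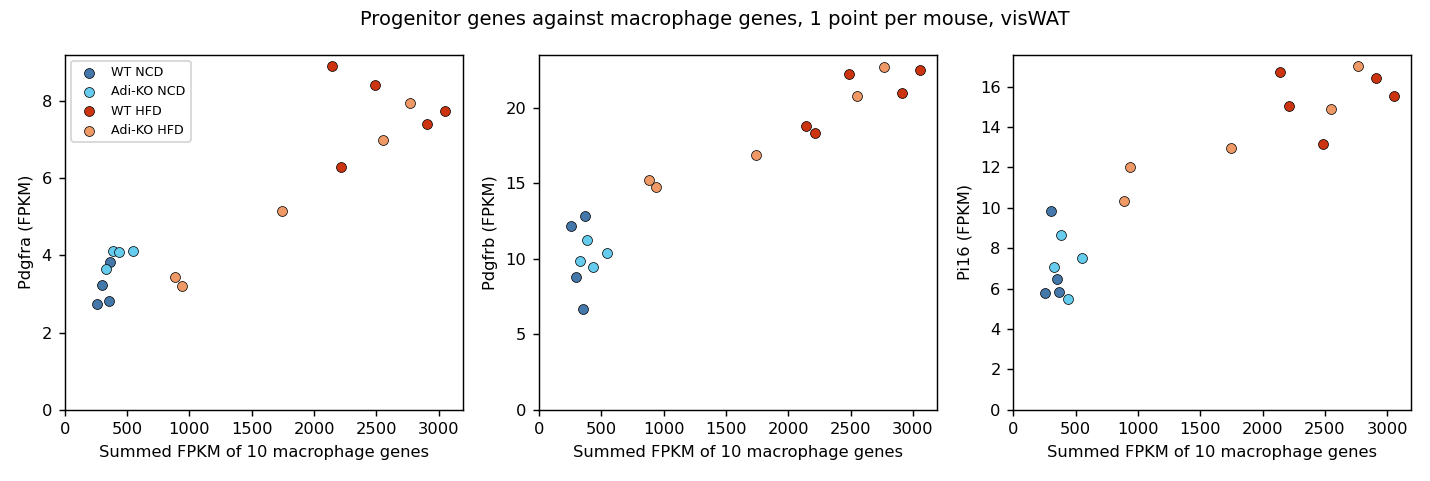
FPKM of Pdgfra, Pdgfrb and Pi16 (vertical axes) against the summed FPKM of 10 macrophage genes (horizontal axes) in each visWAT library, coloured by group. The HFD-fed knockout mice spread from 885 to 2768 on the horizontal axis, and the 2 lowest of them have the lowest Pdgfra of all HFD-fed mice.

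Mesothelial members showed no common rise with HFD. In WT visWAT none of the 5 passed the threshold, and their groups overlapped. Upk3b (ENSMUSG00000042985, chr5:136067350-136075341), the uroplakin of mesothelial membranes, was at 27.5, 11.3, 25.8 and 25.2 FPKM on NCD and at 28.2, 22.7, 13.9, 37.8 and 16.9 on HFD. Its log2 fold change was 0.079 with a 95% interval from -0.66 to 0.82 (limma, adjusted p = 0.873). Lrrn4 (ENSMUSG00000043110, chr2:132710225-132722811), a membrane protein with leucine-rich repeats, was at 4.47, 1.72, 5.90 and 3.48 FPKM on NCD and at 5.83, 4.10, 2.49, 5.91 and 3.32 on HFD. Wt1 (ENSMUSG00000016458, chr2:104956874-105003961) was at 2.41, 1.43, 1.94 and 2.23 FPKM on NCD and at 2.62, 1.82, 1.57, 2.36 and 1.65 on HFD. In WT mice Wt1 had a log2 fold change of -0.00071 with a 95% interval from -0.30 to 0.30.

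Msln (ENSMUSG00000063011, chr17:25967587-25973352), which encodes mesothelin, was at 9.61, 3.69, 8.13 and 7.91 FPKM in WT mice on NCD and at 12.7, 16.8, 7.56, 16.9 and 8.81 on HFD. The groups overlapped, and the log2 fold change of 0.70 ± 0.296 (SE) did not pass (limma, adjusted p = 0.0914), although it did on the TPM scale (adjusted p = 0.023) and in DESeq2 (adjusted p = 0.0477). Krt19 (ENSMUSG00000020911, chr11:100031636-100039491), a keratin of simple epithelia, was at 9.09, 3.07, 9.71 and 43.5 FPKM on NCD and at 12.9, 12.9, 4.91, 13.2 and 8.74 on HFD in WT mice. The value of 43.5 belongs to mouse 183, and the log2 fold change of -0.11 became 0.53 without that mouse, with neither past the threshold. Some markers of other epithelia, but not all, were also high in 3 visWAT libraries, those of mouse 183, knockout NCD mouse 179 and WT HFD mouse 154. Epcam, a surface protein of glandular epithelia, was at 18.4, 8.56 and 3.17 FPKM there and at 0 to 0.653 in the other 15, and the keratin gene Krt8 was at 52.5, 23.7 and 10.4 against 0.837 to 5.97. Krt19 was at 43.5, 14.8 and 12.9 FPKM in these 3 libraries. It reached 13.2 FPKM among the other WT mice on HFD and 14.7 among knockout mice on HFD, so only mouse 183 stood apart. The part of other epithelia in Krt19 was not tested.

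In the knockout, Wt1 and Lrrn4 were lower on HFD. Wt1 was at 2.41, 2.54, 2.14 and 2.31 FPKM on NCD and at 1.44, 2.33, 1.26, 1.07 and 1.24 on HFD, where only mouse 152 reached the NCD range. The log2 fold change was -0.46 ± 0.127 (SE, limma, adjusted p = 0.0171). Lrrn4 was at 4.796, 5.52, 4.56 and 5.398 FPKM on NCD and at 4.20, 4.78, 2.04, 2.45 and 3.46 on HFD, and again only mouse 152 overlapped with NCD. Its log2 fold change of -0.51 ± 0.182 (SE) passed narrowly (limma, adjusted p = 0.0476) and lost the call under 11 of 16 alternatives (adjusted p 0.0176 to 0.125 over them). Upk3b (26.5, 28.2, 11.8, 16.9 and 24.2 FPKM on HFD against 29.9, 30.6, 27.0 and 27.5 on NCD) had a log2 fold change of -0.46 that did not pass (adjusted p = 0.128).

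Of the 20 other mesothelial genes, 17 were tested in WT visWAT, of which 1 was higher and 1 lower on HFD. They were Aldh1a2, the retinoic acid synthase of mesothelium (5.90 ± 1.19 against 3.07 ± 0.641 FPKM, log2 fold change 0.76, limma, adjusted p = 0.00312), and Podxl, a sialomucin also made by endothelium (7.96 ± 1.95 against 12.99 ± 3.87, -0.64, adjusted p = 0.0389). In the knockout Podxl was the only one of 16 to pass (9.41 ± 1.59 against 12.9 ± 1.94 FPKM, adjusted p = 0.0292). In WT mice 4 were higher and none lower on the TPM scale, with a median of 0.48 beside 0.38 for all genes, and without mice 182 and 183, 3 were higher and none lower. Podxl lost its call in 4 of 9 omissions of 1 mouse in WT mice and in 6 of 9 in the knockout (adjusted p up to 0.0871 and 0.0815). The median log2 fold change of the list was 0.052 in WT mice and -0.18 in the knockout, beside -0.0061 and 0.0094 for all genes.

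Some pairs of mesothelial members varied together from mouse to mouse. Among the 10 HFD-fed mice, Upk3b and Lrrn4 had Pearson's r of 0.942 on the log2 scale (Spearman's rho 0.964, permutation p = 4e-05 and 8e-05, adjusted p = 0.00288 over 72 pairs for both). Without mice 153 and 161, the 2 farthest from the median of Upk3b, r was 0.891, and it was 0.965 after the genotype means were subtracted. Upk3b also followed Krt19 (r = 0.889, rho = 0.806, permutation p = 0.00096 and 0.00724, adjusted p = 0.0184 and 0.0745). Lrrn4 followed Krt19 as well (r = 0.873, rho = 0.830, permutation p = 0.00116 and 0.0044, adjusted p = 0.0184 and 0.0548). Of the 10 mesothelial pairs, 6 passed an adjusted p of 0.05 for r and 2 for rho, namely Upk3b with Lrrn4 and Msln with Krt19 (permutation, adjusted p = 0.00288 and 0.025). Over all 10, r ranged from 0.234 (Wt1 with Msln) to 0.942, and without the 2 mice farthest from the median it ranged from 0.0317 to 0.891. Within genotypes the range was 0.255 to 0.965.

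Among the 8 NCD-fed mice, r of the 10 mesothelial pairs ranged from 0.329 to 0.948, and 1 pair passed, Wt1 with Upk3b (r = 0.939, rho = 0.905, exact permutation p = 0.00397 and 0.00456, adjusted p = 0.0286 and 0.0548). WT mouse 180 was the lowest for all 5 genes. Without the 2 mice farthest from the median, 1 of which was mouse 180 in each pair, r ranged from -0.573 to 0.816. Each of these values leaves out 2 mice at once. For Wt1 with Upk3b it was 0.795 without mice 180 and 182, and for Msln with Upk3b 0.816. With mice 182 and 183 left out and mouse 180 kept, r ranged from 0.832 (Msln with Krt19) to 0.981 (Upk3b with Lrrn4).

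**Figure D4:**
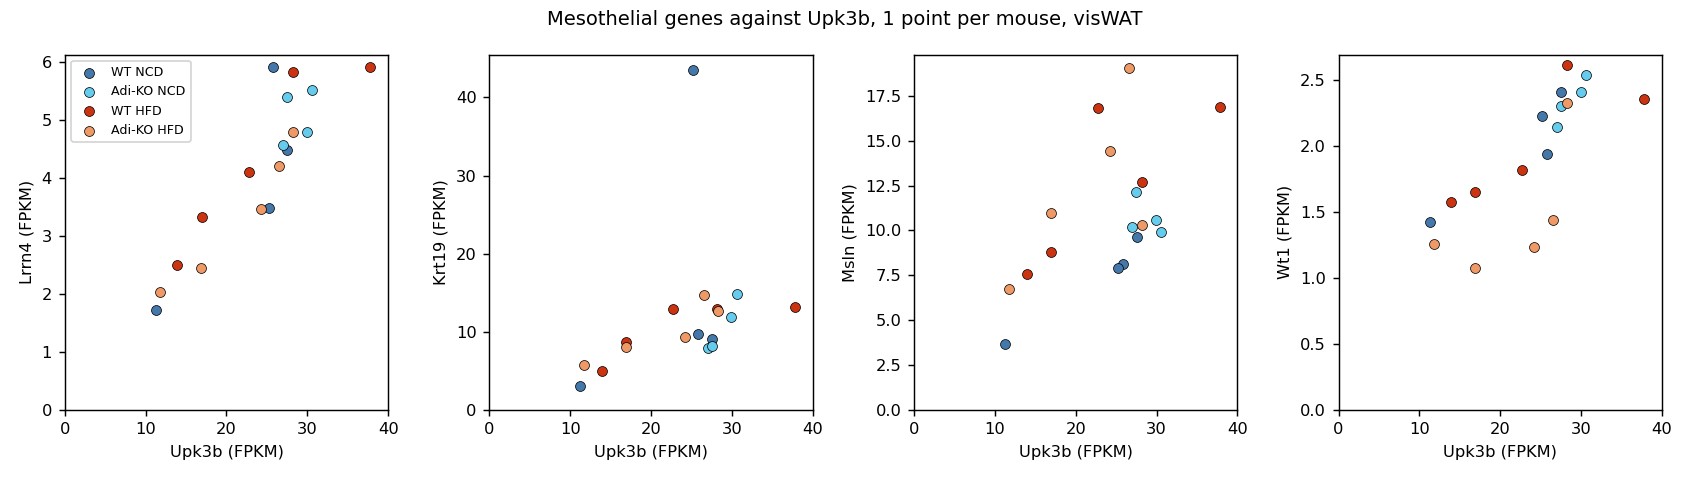
FPKM of Lrrn4, Krt19, Msln and Wt1 (vertical axes) against that of Upk3b (horizontal axes) in each visWAT library, coloured by group. Lrrn4 rises with Upk3b, and the single Krt19 value of 43.5 FPKM is WT NCD mouse 183.

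Pairs of progenitor members ranged from r of -0.078 to 0.898 among HFD-fed mice. Among NCD-fed mice r ranged from -0.770 to 0.363, and no such pair passed. There Pdgfra had r of 0.363 with Pdgfrb and 0.110 with Pi16 (exact permutation p = 0.394 and 0.808), and 0.889 and 0.792 on the TPM scale. Without mice 182 and 183, on the FPKM scale, r was -0.444 with Pdgfrb and 0.416 with Pi16, so these values depend on the mice and the scale. On HFD, Pdgfra went with Pdgfrb (r = 0.898, rho = 0.782, permutation p = 0.0012 and 0.0113, adjusted p = 0.0184 and 0.0793) and with Pi16 (r = 0.836, rho = 0.758, permutation p = 0.0057 and 0.0152, adjusted p = 0.0342 and 0.0914). Without mice 156 and 157 these became 0.683 (permutation p = 0.0813 over 8 mice, exact) and 0.533 (exact permutation p = 0.185), so that both rest in part on those mice. Dpp4 did not go with Pdgfrb (r = -0.078, rho = -0.224, permutation p = 0.818 and 0.538, adjusted p = 0.862 and 0.731). It went with the mesothelial Lrrn4 (r = 0.865, rho = 0.952, permutation p = 0.00128 and 8e-05, adjusted p = 0.0184 and 0.00288) and stayed at r = 0.773 without mice 153 and 162. Dpp4 also went with Upk3b (r = 0.837, rho = 0.867, permutation, adjusted p = 0.0227 and 0.041) and Wt1 (r = 0.785, rho = 0.770, adjusted p = 0.0437 and 0.0793). Without the same mice these were at r = 0.662 and 0.723. Its r with Msln and Krt19 did not pass (adjusted p = 0.171 and 0.125), nor did that with any progenitor member. On NCD, 2 pairs of a progenitor with a mesothelial member passed for r and none for rho. Pdgfra went with Msln (r = 0.814, rho = 0.714, exact permutation p = 0.00461 and 0.0576, adjusted p = 0.0302 and 0.207). Its r was 0.727 without mice 180 and 183 and 0.942 without mice 182 and 183. On HFD that pair had r of -0.325 (permutation, adjusted p = 0.59). The other pair on NCD was Dpp4 with Krt19, at r = 0.981 (rho = 0.786, exact permutation p = 0.00174 and 0.0279, adjusted p = 0.0208 and 0.144), and r was 0.789 without mice 180 and 183 (exact permutation p = 0.0972 over 6 mice). Without mice 182 and 183, and with mouse 180 kept, r was 0.975. Mouse 183, the library with seminal vesicle genes, had the highest value of both genes.

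Genes whose rank over the 18 visWAT libraries was most like that of a member, out of 11190 with a mean of at least 1 FPKM, are given as a description, since diet, depth and tissue makeup are shared by all of them. Pdgfra was most like Timp2 (Spearman's rho 0.961), Antxr1 (0.955) and Lama2 (0.948). For Pdgfrb the nearest were Dhx38 (0.981), Fmnl1 (0.973) and Arhgap17 (0.969), and for Pi16 they were Hpgds, Slc6a6 and Oxtr, each at 0.944. Upk3b and Lrrn4 each had Ildr2 first (0.907 and 0.924) and each other among the first 3 (0.884). Msln was nearest to Slpi (0.922), a secreted protease inhibitor, Wt1 to Atp1b1 (0.899), Krt19 to AI661453 (0.870) and Dpp4 to Fmod (0.843). Without mice 182 and 183, the first gene stayed the same for Pdgfra (Timp2, 0.962), Wt1 (Atp1b1, 0.956) and Msln (Slpi, 0.915), and was Lrrn4 for Upk3b (0.947), Fmod for Lrrn4 (0.968), and Rspo1 for Dpp4 (0.909) and Krt19 (0.894). For Pdgfrb it became Ankrd13a (0.988) and for Pi16 Csf3r and Plekha4 (both 0.959). None of the first 3 genes of Pdgfrb or Pi16 stayed among the first 3.

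The next question was whether deletion of Mlkl in adipocytes altered these genes. On HFD, none of the 9 members passed in limma, edgeR or DESeq2, with 0.0215% of all 13963 genes tested passing in limma (3 genes). Pdgfra was the 1 member with an unadjusted p under 0.05, as 21.5% of all genes tested. The groups overlapped for each of them, whereas 3.01% of all genes tested did not overlap. Pdgfra had the largest difference, with means of 5.35 ± 2.11 FPKM in the knockout and 7.75 ± 1.004 in WT mice (SD, n = 5 each). This corresponds to a log2 fold change of -0.52 with a 95% interval from -0.98 to -0.06 (limma, adjusted p = 0.221), and the two-sided exact permutation test gave p = 0.0635. The log2 fold changes of the other 8 lay between -0.29 (Wt1, interval from -0.60 to 0.018) and -0.036 (Msln, interval from -0.66 to 0.59). No gene of the other progenitor, mesothelial, mural, macrophage, adipocyte, endothelial or PDGF ligand lists passed.

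On NCD, none of the 9 members passed in limma, edgeR or DESeq2, and 0% of all 14063 genes tested did in limma. At an unadjusted p under 0.05 there were 2 members, Pdgfra (log2 fold change 0.27 ± 0.0914, SE, 3.99 ± 0.219 against 3.16 ± 0.497 FPKM) and Msln (0.55 ± 0.235, SE, 10.7 ± 0.989 against 7.33 ± 2.54 FPKM), as 3.75% of all genes tested. Both had an adjusted p of 0.916. On the TPM scale the median of all genes was 0.33, and relative to it Msln was at 0.64 and Pdgfra at 0.33. Msln was at 10.6, 9.91, 10.2 and 12.1 FPKM in the knockout, above the 4 WT mice, as 2.46% of all genes tested did not overlap. The exact permutation test of Msln gave p = 0.0286, the smallest that 4 against 4 mice allow. Without mice 182 and 183 the groups did not overlap for 4 members, as for 12% of all genes tested. Upk3b was at 28.7 ± 1.77 FPKM in the knockout against 22.5 ± 7.52 in WT mice.

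The genotype difference was compared between diets with an interaction term. None of 9 members passed in limma, edgeR or DESeq2, and 0% of all 14136 genes tested did in limma. Pdgfra and Wt1 had an unadjusted p under 0.05, as 2 of the 9 against 13.2% of all genes tested. Pdgfra had the largest estimate, -0.79 ± 0.258 (SE, limma, adjusted p = 0.326), followed by Lrrn4 (-0.66 ± 0.362, adjusted p = 0.426), Msln (-0.59 ± 0.400, adjusted p = 0.508), Upk3b (-0.54 ± 0.425, adjusted p = 0.565) and Wt1 (-0.46 ± 0.192, adjusted p = 0.356). The diet effects of the 2 genotypes on Pdgfra, Wt1 and Lrrn4 are thus not shown to differ. On the TPM scale the median interaction of all genes was -0.41, and relative to it Pdgfra was at -0.94, Lrrn4 at -0.84 and Wt1 at -0.65. Over all genes, an unadjusted p under 0.05 was found for 1867 genes in the interaction, for 528 genes in the genotype comparison on NCD and for 3003 genes on HFD.

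Liver served as a contrast, a tissue with stellate cells that also use PDGF receptors, with bile ducts that express Krt19 and with hepatocytes that express Dpp4. In WT mice on NCD, 9 members were compared between tissues and all 9 passed, with 65.5% of all genes tested, 8 of them higher in visWAT. On the TPM scale the median of all genes was 0.55 and the split went from 4580 higher and 4947 lower to 7019 higher and 2357 lower, with the same 8 members higher. Upk3b was at 0.719, 0.605, 0.615 and 0.623 FPKM in liver, a mean of 0.641 ± 0.0528 (SD, n = 4) against 22.5 ± 7.52 in visWAT, a ratio of 35.1 (log2 fold change 3.76 ± 0.253, SE, limma, adjusted p = 3.33e-06). Pi16 had the largest ratio of means, 200, and was at 0.0177 to 0.0607 FPKM in these livers. Dpp4 was the exception, with 23.8, 21.0, 16.3 and 23.2 FPKM in liver against 4.65 ± 3.995 in visWAT (log2 fold change -2.18 ± 0.393, SE, limma, adjusted p = 0.00127). Wt1, Msln, Lrrn4, Upk3b, Pi16, Pdgfra and Pdgfrb were higher in every one of the 18 visWAT libraries than in any of the 18 liver libraries. The gap was narrow for Pdgfra (at least 2.75 FPKM in visWAT, at most 2.59 in liver) and Pdgfrb (6.70 and 5.81). The mesothelial list shared this contrast only in part, with 12 of 17 other genes higher and 5 lower in visWAT.

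**Figure D5:**
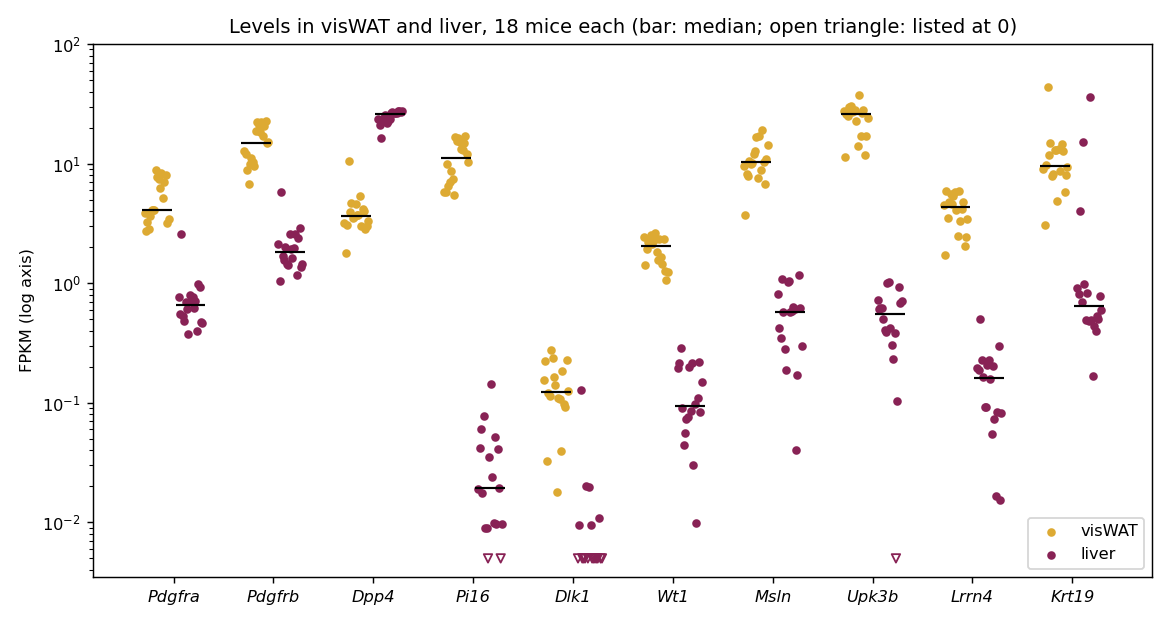
FPKM (vertical axis, logarithmic) of the 10 genes in the 18 visWAT and the 18 liver libraries. Bars are medians and open triangles values listed at 0. Dpp4 is the 1 gene with liver above visWAT, and 3 liver libraries stand above the others for Krt19.

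Krt19 was uneven in liver. It was at 0.169 to 0.991 FPKM in 15 of 18 livers, and at 36.2 in WT HFD mouse 155, 15.2 in knockout NCD mouse 166 and 3.98 in WT NCD mouse 182. These 3 livers also had the highest Epcam, a surface protein of bile duct epithelium, at 5.88, 3.79 and 7.83 FPKM, against 0.473 to 1.91 in the other 15. Krt7, a bile duct keratin, was at 1.24, 0.665 and 0.732 FPKM there, against 0.0606 to 0.245 elsewhere. Sox9, a transcription factor of bile ducts, was high in mouse 182 (6.83 FPKM, others of its group 2.63 to 3.55), the lowest of its group in mouse 166 (1.27, others 1.77 to 2.43) and within its group in mouse 155 (1.26, others 0.687 to 1.37). The liver of mouse 182 was also the highest for Pdgfra (2.59 FPKM, others at most 0.988) and Pdgfrb (5.81, others at most 2.90). The summed level of 6 bile duct genes, Krt19 included, was 83.6 FPKM in mouse 155, 49.7 in mouse 166 and 166.7 in mouse 182, and 20.1 to 59.7 in the others. The part of bile duct tissue in these values was not tested. Dlk1 had no read in 12 of 18 livers, where 3 reads would give 0.0271 to 0.0333 FPKM. Pi16 had none in 2 and Upk3b none in 1.

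Diet in liver moved Dpp4 alone among the members. In knockout mice, Dpp4 was at 24.1, 25.5, 21.96 and 22.8 FPKM on NCD and at 26.7, 27.4, 27.3, 27.1 and 27.6 on HFD (log2 fold change 0.20 ± 0.0555, SE, limma, adjusted p = 0.0276), 1 of 5 members tested against 22.2% of all genes. That call was lost on the TPM scale (adjusted p = 0.0976) and when any of 6 mice was left out (adjusted p up to 0.0767). Krt19, uneven as above, passed as lower on HFD in edgeR alone (adjusted p = 0.0395). In WT mice none of 6 members tested passed, against 25.3% of all genes, and Dpp4 had a log2 fold change of 0.31 ± 0.102 (SE, limma, adjusted p = 0.0536). It was the 1 member with an unadjusted p under 0.05, as 37.5% of all genes tested, and it passed in edgeR (adjusted p = 0.0434) and in DESeq2 (adjusted p = 0.0193). Between genotypes no member passed in liver, with 0.197% of all genes tested on HFD and 0.00758% on NCD.

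The diet effect in WT mice was then compared between tissues. It was larger in visWAT for Pdgfra (difference of log2 fold changes 1.27 ± 0.265, SE, limma, adjusted p = 0.00116), Pi16 (1.04 ± 0.156, adjusted p = 6.14e-05) and Pdgfrb (1.07 ± 0.362, adjusted p = 0.0264), 3 of 9 members against 40% of all genes tested. On the TPM scale the median of all genes was 0.35 and the split of passing genes went from 3214 higher and 2687 lower to 4609 higher and 719 lower, and relative to that median the differences were 1.545 for Pdgfra, 1.2004 for Pi16 and 1.21 for Pdgfrb. For Pdgfrb the difference was 0.37 without mice 182 and 183 (adjusted p = 0.186), and the call was also lost with a pseudocount of 0.1 (adjusted p = 0.0746), without a filter (0.0529) and without mouse 155 (0.0654) or 161 (0.0689). For Pi16, which liver hardly expresses, the counts of reads gave no call (edgeR 0.53, adjusted p = 0.583, DESeq2 0.54, adjusted p = 0.451). RNA was extracted with different reagents from the 2 tissues, so that tissue and extraction cannot be told apart in the levels.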

How the data were processed

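Poly(A) RNA of visWAT and liver from 18 mice was sequenced as 36 libraries, 1 per mouse and tissue. Per the labels and the study's methods, the authors trimmed reads with fastp, aligned them to mm39 with HISAT2, counted them per gene with featureCounts 1.5.0-p3 and deposited FPKM values for all genes. The deposited comparison tables also hold read counts, together with log2 fold changes and p-values of the authors, which were not used, and 72 of their columns with values per sample were not used. The annotation release is not given in the sources used here.

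Groups came from the labels. Differences were tested with limma 3.58.1 (trend) on log2(FPKM + 1) among genes with a mean of at least 0.5 FPKM over the libraries compared, with Benjamini-Hochberg adjustment over all genes tested and a threshold of 0.05. Whole reads were recovered from the FPKM values for 100% of values (tolerance 0.01) and tested with edgeR 4.0.16 (quasi-likelihood) and DESeq2 1.42.0 as alternatives, in R 4.3.3. Single genes were also compared by two-sided exact permutation tests and correlations by permutation (scipy 1.17.1, 100000 resamples over 10 mice). Intervals are at 95%, and floors for a value of 0 (3 reads) cover counting error only. No replicate pair was the same library (lowest chi-square per gene 9.82).

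Visceral fat and liver of 1 mouse share a number. Deviations from the group means in the 2 tissues of the same mouse correlated at -0.0659 to 0.0891 (WT NCD) and -0.0139 to 0.0539 (WT HFD). Those of different mice correlated at -0.120 to 0.0928 and -0.0722 to 0.0894, which covers the ranges of the same mouse. These values therefore do not show the pairing, which comes from the mouse number alone. With the mouse as a replicate block, 9 members passed between tissues and 3 for tissue by diet, as without it.

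The members and gene lists were chosen with earlier results of these data known. Of 132 names on the lists, 131 matched the table. Genes named from a list are up to 4 with the largest change among those past the threshold and at 1 FPKM or more in either group, and as most alike the 3 with the highest Spearman's rho among genes with a mean of at least 1 FPKM, leaving out predicted Gm and Rik genes. Mlkl was named as the check of genotype, and Epcam, Krt7, Krt8, Krt18 and Sox9 were chosen after their values were seen. Results were recomputed on the TPM scale, in edgeR and DESeq2, with a pseudocount of 0.1, without a filter or with a mean of at least 1 FPKM, in 1 fit of all visWAT libraries, and without each mouse or mice 182 and 183. Leaving out libraries for the counts of groups that do not overlap and for genes of the lists, and mice 182 and 183 for diet in WT liver, was chosen after seeing the data.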

Additional observations from a re-analysis of the deposited data

Results flagged for a closer look

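In 19 of 80 groups of 4 or 5 libraries, 1 value of a member stood apart from the rest by Dixon's criterion, where chance gives about 1 in 20, or 4. In visWAT these were Dpp4 at 10.6 FPKM (others 1.77 to 3.18) and Krt19 at 43.5 (others 3.07 to 9.71) in WT NCD mouse 183, the library with seminal vesicle genes. Pi16 was at 9.86 FPKM (others 5.79 to 6.47) in the library labelled WT NCD mouse 182, Upk3b was low at 11.3 (others 25.2 to 27.5) in WT NCD mouse 180, and Pdgfra was low at 3.66 (others 4.08 to 4.11) in knockout NCD mouse 166.

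In liver, WT NCD mouse 182 stood above its group for Pdgfra (2.59 FPKM), Dlk1 (0.128), Lrrn4 (0.507) and Krt19 (3.98). Krt19 stood apart at 36.2 FPKM in WT HFD mouse 155 and at 15.2 in knockout NCD mouse 166, which was also high for Pi16 (0.078). WT HFD mouse 154 was high for Msln (1.04) and Upk3b (1.03) and low for Dpp4 (23.7, others 26.4 to 27.2). Upk3b was at 0.719 FPKM in WT NCD mouse 165 and Lrrn4 at 0.301 in knockout HFD mouse 153. Dlk1 was read in 1 liver of its group in knockout NCD mouse 197 (0.0202 FPKM) and knockout HFD mouse 153 (0.011), values below the level of 3 reads.

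The effect of HFD in WT mice differed between visWAT and liver, by the test of that difference, for Pdgfra (1.27 on the log2 scale), Pdgfrb (1.07) and Pi16 (1.04).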

How the results depend on the processing

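Of 1407 alternative fits of the members tested, 92 had the other sign, and none of those passed the threshold either way. Among alternatives to the fold changes that passed and are given above, 262 passed too and 27 did not, 11 of them for Lrrn4 in the knockout and 7 for Dpp4 in knockout liver. Krt19 and Pdgfra between tissues lost their calls only without WT mouse 165 (adjusted p = 0.0709 and 0.0579). For diet in WT visWAT, the sign changed for Dpp4 in edgeR (-0.26) and DESeq2 (-0.24), and for Wt1 and Krt19 on the TPM scale (0.41 and 0.38) and without mice 182 and 183 (0.049 and 0.77). The cause was not tested.

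With each mouse left out in turn, diet in WT visWAT gave -0.22 to 0.47 for Dpp4, -0.099 to 0.065 for Wt1, -0.21 to 0.24 for Upk3b, -0.10 to 0.35 for Lrrn4 and -0.63 to 0.53 for Krt19. Diet in the knockout gave -0.050 to 0.29 for Msln and -0.24 to 0.066 for Krt19, and genotype on HFD gave -0.20 to 0.14 for Msln, -0.29 to 0.062 for Upk3b and -0.26 to 0.12 for Krt19. None of these passed. Members passing for diet in WT liver went from 0 to 1 with a minimum of 1 FPKM, the TPM scale, edgeR or DESeq2 (0 to 1 with a mouse left out). In knockout liver they went from 1 to 0 on the TPM scale and to 2 in edgeR (0 to 1 with a mouse left out). Members whose groups did not overlap numbered 2 to 5 for diet in the knockout, 5 being without mouse 152 (40.9% of all genes tested), 0 to 1 for genotype on HFD, 1 being without mouse 152 (7.73%), and 1 to 3 for genotype on NCD, 3 being without mouse 165 (11.1%), and 4 there without mice 182 and 183 (12%). DESeq2 called 161 rather than 3 genes for genotype on HFD, 8 rather than 0 on NCD and 19 rather than 0 for the interaction, with no member among them. The replicate block changed no call of a member. Dlk1 was too low to test.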
